A study of Mus musculus with 13 samples.

Results

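The insulin-like growth factor (IGF) axis was described here through 10 genes: the ligands Igf1 and Igf2, the receptors Igf1r and Igf2r, the binding proteins Igfbp2, Igfbp3, Igfbp4 and Igfbp5, and the receptor substrates Irs1 and Irs2. A probe set was taken as a member when the platform annotation gave it 1 of these symbols, which found 26 of 45101 probe sets and all 10 genes, out of 18193 genes with a symbol of their own. RNA of untreated mouse tissue was hybridised to Affymetrix arrays, 1 array per mouse. The 6 medulloblastomas (tumours) arose in Ptch1(+/-) mice by inactivation of Ptch1, the receptor that holds hedgehog signalling in check, and are labelled primary tumours (Ptch1 MB). The 3 samples of postnatal cerebellar granule neuron precursor cells came from wildtype mice at P7 (P7 GNPC), and the 4 samples of embryonic dorsal brainstem from wildtype mice at E16.5 (E16.5 DBS). The labels give no age, strain or sex for the tumour mice, and in the normal samples age and tissue cannot be told apart.

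IGF1 and IGF2 are secreted growth factors that activate the receptor tyrosine kinase IGF1R, which phosphorylates the adaptor proteins IRS1 and IRS2 and through them the PI3K-Akt and Ras-MAPK cascades. IGF2R binds IGF2 and carries it to the lysosome, and the IGF binding proteins hold the ligands outside the cell, limiting or prolonging their action. IGF signalling supports the proliferation and survival of granule neuron precursors, and Igf2 is known as a gene needed for hedgehog-driven medulloblastoma in mice.

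Promoters are shown for the member that was higher in tumours (Irs1) and for the ligand and the binding protein that were furthest below both normal tissues in the fitted probe sets (Igf1 and Igfbp5). The sequences are RefSeq's, on GRCm38.p6, which matched all 10 genes with 14 start sites. Each run is the 250 bases before a start site, read 5′ to 3′ on the gene's strand, with matches to GGGCGG or its reverse CCGCCC, a GC box bound by Sp1 family factors, in capitals. The Irs1 window lies at chr1:82291440-82291689 on the minus strand, the Igf1 window at chr10:87860861-87861110 on the plus strand, and the Igfbp5 window at chr1:72874866-72875115 on the minus strand.
Irs1: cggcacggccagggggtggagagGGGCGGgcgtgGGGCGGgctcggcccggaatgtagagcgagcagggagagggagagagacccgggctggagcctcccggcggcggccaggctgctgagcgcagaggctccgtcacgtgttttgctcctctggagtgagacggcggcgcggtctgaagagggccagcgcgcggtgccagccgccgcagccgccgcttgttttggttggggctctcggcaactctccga
Igf1: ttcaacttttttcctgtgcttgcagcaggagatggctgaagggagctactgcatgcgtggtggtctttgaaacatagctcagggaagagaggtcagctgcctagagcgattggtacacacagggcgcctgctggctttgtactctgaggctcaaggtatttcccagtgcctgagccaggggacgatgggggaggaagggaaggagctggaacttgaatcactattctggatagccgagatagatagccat
Igfbp5: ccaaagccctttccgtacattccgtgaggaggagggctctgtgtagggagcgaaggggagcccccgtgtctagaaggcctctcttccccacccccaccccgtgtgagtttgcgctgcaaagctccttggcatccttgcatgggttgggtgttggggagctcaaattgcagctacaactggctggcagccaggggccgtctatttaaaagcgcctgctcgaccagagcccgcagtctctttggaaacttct
The Irs1 window held 2 GC boxes and the other windows shown held 0. Over all members the letters GGGCGG, on either strand, were present in 7 of 14 windows, from the genes Igf2, Igf1r, Igf2r, Igfbp2, Irs1 and Irs2, against 32.7% of 32851 windows of the same length. The Irs1 window had 28 CpG dinucleotides and a GC content of 72.4%, the Igf1 window 5 and 52.8%, and the Igfbp5 window 10 and 58.8%, beside medians of 6 and 52.4% over all windows. The Gli consensus GACCACCCA, the site of the hedgehog transcription factors, was present in 0 of 14 member windows on either strand and in 0.225% of all windows. The forkhead site TGTTTAC, bound by FoxO factors, was present in 0 of 14 and in 3.17% of all windows.

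Values are linear array intensities that the authors scaled to the same trimmed mean on every array, so they compare 1 probe set across samples and never 2 genes with each other. Array medians ran from 91.3 to 117.5. Tests are limma's moderated test on log2(value + 18), fitted to 12270 genes with 1 probe set each, and a gene was called when its Benjamini-Hochberg adjusted p was under 0.05 and it differed at least 2-fold. Adding 18 understates the fold of dim genes. All 10 members passed the filter on dim probe sets. The 3 comparisons share samples, so they are not independent of each other, and their p-values measure the spread between these mice. The mean log2 level of 12 of 12 granule neuron precursor markers was highest in the tumours (11.68 to 11.85), lower in GNPC (10.83 to 11.1) and lowest in DBS (8.55 to 8.79). Between tumours and GNPC the genes did not agree. Atoh1, Barhl1, Mki67, Mycn, Gli1, Gli2 and Sfrp1 had higher means in tumours. Pax6 (2519 against 3703), Neurod1 (10471 against 16103) and Cntn2 (712 against 1462) had lower ones, and Zic1 and Zic2 were close. The GNPC samples also carried the highest mean log2 level of 10 Purkinje cell markers (11.5 to 11.83, against 7.49 to 10.47 in tumours and 9.42 to 9.65 in DBS). Of these, Lhx1 and Foxp2 had higher means in tumours than in GNPC (3418 against 2212, and 1015 against 569). The Ptch1 probe set differed from no normal tissue by the call rule (log2 differences of 0.22 and 0.31), and since the labels do not give the deleted part, it does not check them.

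Against GNPC, 7 of 10 members were called, where 20.8% of all genes were. The 6 that fell in tumours were Igf1, Igf2, Igf2r, Igfbp2, Igfbp4 and Igfbp5 (14.2% of all genes were lower), and the 1 that rose was Irs1 (6.59% of all genes were higher). The median log2 difference of the 10 members was -1.21, beside -0.03 over all genes, and at any fold 7 had an adjusted p under 0.05, beside 49.4% of all genes. Against DBS, 5 of 10 were called, all lower (Igf1, Igf2r, Igfbp2, Igfbp4 and Igfbp5), where 36.3% of all genes were called, 20.9% lower and 15.5% higher. The median was -1.14, beside 0 over all genes, and at any fold 7 had an adjusted p under 0.05, beside 70.4% of all genes. Between GNPC and DBS limma called 0 of 10, where 18.4% of all genes were called, 8.73% higher and 9.68% lower. There 5 members had an unadjusted p under 0.05, and 5 had an adjusted p under 0.05 with a difference short of 2-fold, beside 44.1% of all genes with such a p at any fold. In these bulk samples, fewer cells of a type and less RNA per cell cannot be told apart.

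**Figure D1:**
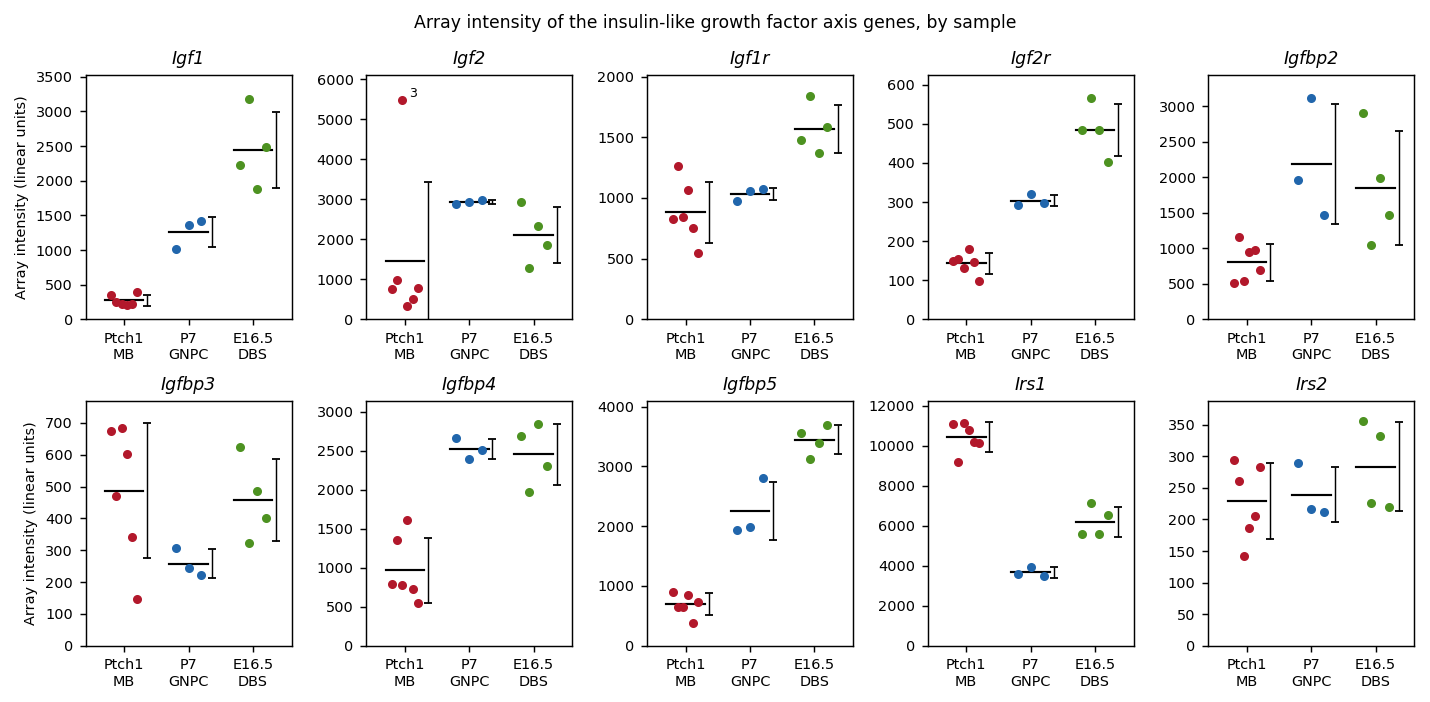
Array intensity (linear units) of the fitted probe set of each of the 10 genes in every sample, with points for samples, horizontal lines for group means and bars for the SD (n = 6 Ptch1 MB, 3 P7 GNPC, 4 E16.5 DBS). Igf1, Igf2r, Igfbp4 and Igfbp5 lie lower in all 6 tumours than in any normal sample, Irs1 lies higher, and tumour 3 alone carries Igf2 at 5471.8.

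**Figure D2:**
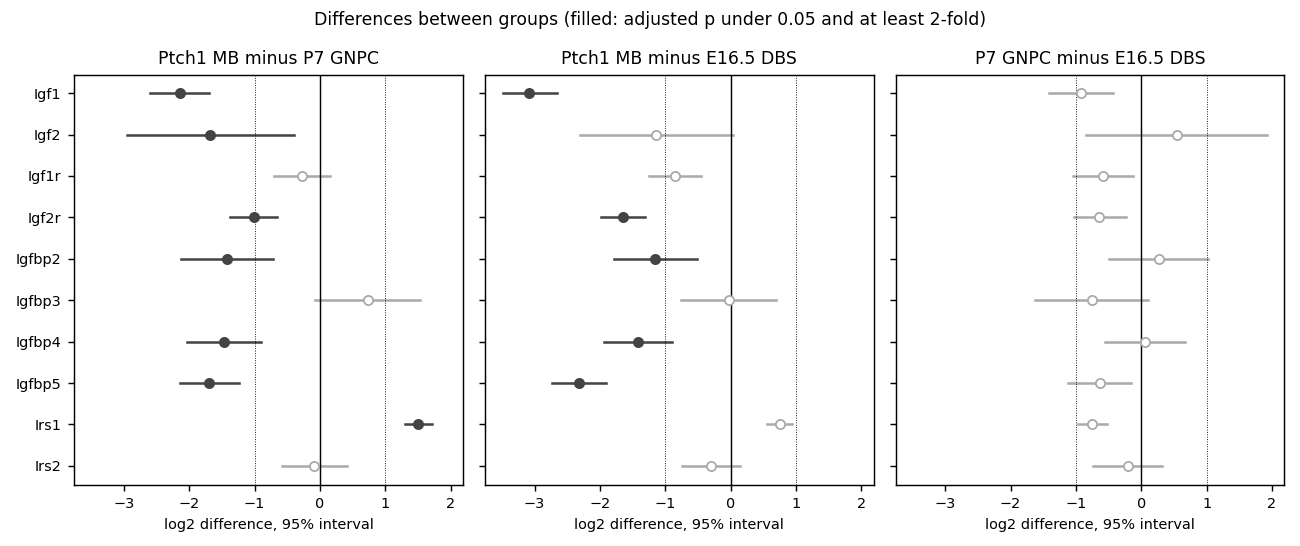
Log2 differences of the 10 genes in the 3 comparisons, with 95% intervals from limma; filled points passed an adjusted p of 0.05 and a 2-fold difference, and dotted lines mark 2-fold. Points left of 0 are lower in the first group, as Igf1 is at -2.14 and -3.08 in tumours.

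Among the ligands, Igf1 was at 356.6, 244.9, 227.3, 213.4, 226.2 and 390 in tumours 1 to 6. It was at 1010.4, 1365.1 and 1412.2 in GNPC and at 2223.8, 3182.2, 1886.6 and 2489.7 in DBS. The 3 groups did not overlap, with the tumours lowest and DBS highest. The log2 difference of tumours was -2.14 ± 0.21 (SE) from GNPC (adjusted p = 2.76e-06, limma) and -3.08 ± 0.19 from DBS (adjusted p = 3.54e-09), 4.42-fold and 8.43-fold lower. GNPC was 0.93 below DBS on the log2 scale (-0.93 ± 0.23, adjusted p = 0.00423), short of 2-fold. DBS sample 2, which had the highest Igf1 value, also stood apart in RNA quality: its log2 ratio of 3′ to 5′ control probe sets was 2.43, against 1.23 to 1.7 in the other DBS samples, 1.11 to 1.19 in GNPC and 1.33 to 1.59 in tumours. Without it the difference of tumours from DBS was -2.94.

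The other Igf1 probe sets did not all follow. A second one, 1437401_at, was lower in tumours by the call rule against both normal tissues when all 45037 probe sets were fitted (-1.78 ± 0.18 and -2.94 ± 0.16). The probe set 1452014_a_at was at 520.4, 250.3, 243.3, 452.2, 542.3 and 606.6 in tumours, at 131.6, 269.6 and 151.1 in GNPC, and at 195.4, 140.6, 211 and 173.1 in DBS. On this probe set the tumours were higher, by 1.15 ± 0.29 against GNPC (adjusted p = 0.00864, limma) and 1.13 ± 0.27 against DBS (adjusted p = 0.00258). The last, 1419519_at, differed by 0.11 ± 0.25 and -0.61 ± 0.23 and was not called. Within every array the probe sets were also set against the fitted one, as a description after their values were seen. The log2 ratio of 1452014_a_at to the fitted probe set was 0.03 to 1.2 in tumours, -3.08 to -2.27 in GNPC and -4.33 to -3.06 in DBS. This ratio was higher in each of the 6 tumours than in any normal sample. The fitted probe set was itself lower in every tumour, so the ratio would rise even where the other probe set did not change. On 1452014_a_at alone, GNPC sample 2 (269.6) exceeded tumours 2 and 3 (250.3 and 243.3). For 1419519_at the same ratio was -0.27 to 0.26 in tumours, -2.44 to -2.12 in GNPC and -2.67 to -2.35 in DBS, and for 1437401_at it was -0.68 to 0.21, -0.65 to -0.45 and -0.42 to -0.17, with overlapping groups. Igf1 was called lower on the probe sets 1434413_at and 1437401_at and called higher on 1452014_a_at. The mean over its 4 probe sets was -0.67 against GNPC, which was not called, and -1.37 against DBS.

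**Figure D3:**
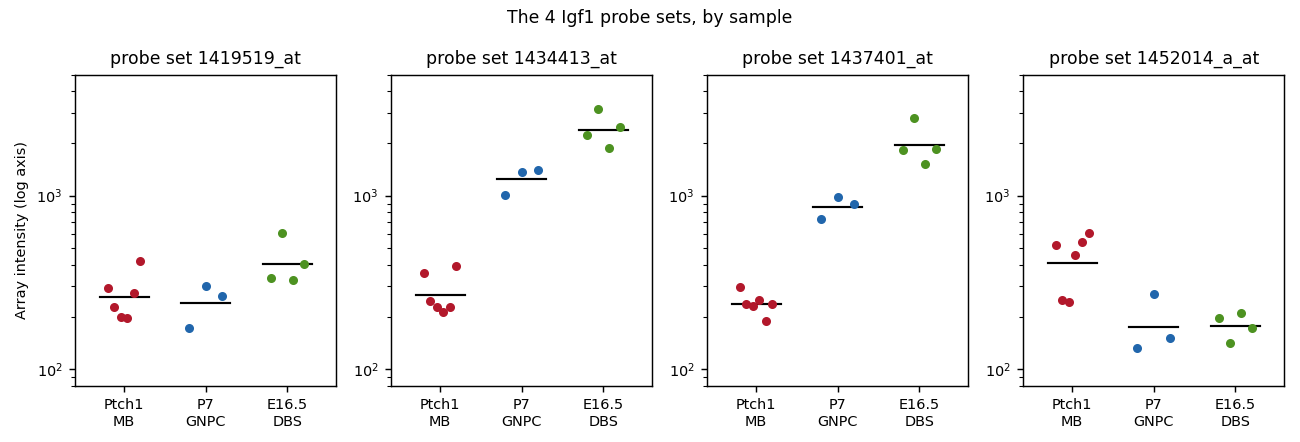
Array intensity (log axis) of the 4 Igf1 probe sets in every sample, with a line at each geometric mean. The tumours lie below both normal tissues on 1434413_at and 1437401_at. On 1452014_a_at they lie at 243.3 to 606.6, above DBS at 140.6 to 211 and overlapping GNPC at 131.6 to 269.6.

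Igf2, an imprinted gene active mainly in fetal tissues, was uneven among the tumours. It was at 751.3, 981.3, 5471.8, 331.6, 498.6 and 780.7 in tumours 1 to 6. GNPC had 2886.4, 2935.2 and 2977.6, and DBS had 2944, 1278.5, 2322.1 and 1868.2. Tumour 3 exceeded every normal sample, and the other 5 tumours lay below every normal sample. Over all 6 the difference was -1.68 ± 0.6 from GNPC (95% interval -2.96 to -0.4, adjusted p = 0.0306, limma) and -1.14 ± 0.55 from DBS (adjusted p = 0.0751, not called). Without tumour 3 the values were -2.2 (adjusted p = 5.91e-05) and -1.66 (adjusted p = 0.000113), and both were called. The call against GNPC was lost without tumour 4, without tumour 5, or with any 1 GNPC sample left out (adjusted p = 0.0549, 0.0578, 0.0779, 0.0763 and 0.0764), and when the arrays were scaled to one median (-1.44, adjusted p = 0.0569) or those 2 groups fitted alone (adjusted p = 0.0579). The other Igf2 probe set, 1415931_at, was at or under 46 on every array and did not pass the filter.

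Igf1r, the signalling receptor, was at 829.2, 1264.4, 845.7, 1064.3, 754.5 and 543 in tumours, at 972.3, 1053.5 and 1071.9 in GNPC, and at 1478.1, 1837.4, 1373.6 and 1581.9 in DBS. The tumours lay on both sides of GNPC and below every DBS sample. The difference was -0.27 ± 0.2 from GNPC (95% interval -0.7 to 0.16, adjusted p = 0.284, limma) and -0.85 ± 0.18 from DBS (adjusted p = 0.000717), short of 2-fold. Of its 5 probe sets, none was called in any comparison; 1426565_at was the only one with a positive difference from both normal tissues (0.48 ± 0.19 and 0.29 ± 0.17).

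Igf2r, the clearing receptor, was at 148.3, 154, 132.5, 180.8, 147.2 and 97.8 in tumours, at 292.7, 319.6 and 297.5 in GNPC, and at 484.4, 567.1, 483.8 and 402.2 in DBS. The 3 groups did not overlap, in the same order as for Igf1. The tumours differed by -1.01 ± 0.17 from GNPC (adjusted p = 0.000229, limma) and by -1.65 ± 0.16 from DBS (adjusted p = 2.44e-07). The first of these lies at the 2-fold edge and was under it without tumour 3 (-0.99), tumour 6 (-0.92) or GNPC sample 2 (-0.97), and with median scaling (-0.79), quantile normalization (-0.81) or a pseudocount of 64 (-0.83). The second Igf2r probe set, 1424111_at, was called lower against both (-1.03 ± 0.24 and -1.19 ± 0.22).

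Of the binding proteins, Igfbp5, which binds extracellular matrix as well as IGFs, had the largest fall. It was at 893.8, 652, 650.4, 850.8, 387.2 and 737.9 in tumours, at 1943.8, 1993.6 and 2806.4 in GNPC, and at 3553.9, 3131.5, 3399.8 and 3700.9 in DBS. The 3 groups did not overlap. The tumours were 3.23-fold lower than GNPC (-1.69 ± 0.21, adjusted p = 1.81e-05, limma) and 5.01-fold lower than DBS (-2.32 ± 0.19, adjusted p = 5.91e-08). The fitted probe set, 1452114_s_at, is of a kind that can bind more than 1 transcript. The dim probe set 1422313_a_at, at 28.4 to 222 in tumours, differed by 0.34 ± 0.42 and 0.27 ± 0.38, and the mean of both probe sets was -0.68 against GNPC, not called, and -1.02 against DBS.

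Igfbp4, a binding protein cleaved by the protease PAPP-A, was at 793.3, 1349.9, 775, 1610.5, 721.5 and 544.9 in tumours. GNPC had 2662.1, 2397 and 2508.9, and DBS had 2692.7, 1973.1, 2845.1 and 2307. All 6 tumours lay below both normal tissues, which overlapped each other. The difference was -1.47 ± 0.27 from GNPC (adjusted p = 0.000408, limma) and -1.42 ± 0.24 from DBS (adjusted p = 0.000105), and 0.05 ± 0.29 between GNPC and DBS. Of its 6 probe sets, 4 were called lower against both normal tissues, 1421992_a_at was not called (-0.82 and -0.47), and 1421991_a_at did not pass the filter.

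Igfbp2, a binding protein of the developing brain, was at 510.6, 1155.7, 537.2, 947.6, 970.8 and 696.4 in tumours. GNPC had 1960.2, 3118.1 and 1470.6, and DBS had 2907.6, 1039.3, 1988.6 and 1466.3. The tumours lay below every GNPC sample, and tumour 2 lay above DBS sample 2, the sample with the high 3′ to 5′ ratio. The difference was -1.42 ± 0.33 from GNPC (adjusted p = 0.00243, limma) and -1.15 ± 0.3 from DBS (adjusted p = 0.00309). The DBS call was lost without DBS sample 1 (-0.9, adjusted p = 0.0158). Choroid plexus markers (8 of 10, with Kl counted although it did not pass the filter) differed widely between samples of 1 group. They summed to 3019, 31180 and 1880 in the GNPC samples in order, to 29943, 886, 14944 and 29526 in DBS, and to 1211 to 12254 in tumours. GNPC sample 2 and DBS sample 1, which had the highest Igfbp2 of their groups, had the highest sums. DBS sample 2 had the lowest DBS value of both, as it had of Igf2 (1278.5, against 2944 in DBS sample 1). Other samples did not match: DBS sample 4, with a sum of 29526, had Igfbp2 at 1466.3, below DBS sample 3 at 1988.6. Igf2 was at 2886.4, 2935.2 and 2977.6 in the GNPC samples in order, whose sums differed widely. Without GNPC sample 2 the difference from GNPC was -1.13 (adjusted p = 0.0226, limma) and still called. The part of choroid plexus in Igfbp2 and Igf2 was not tested.

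Igfbp3, the main carrier of IGFs in serum, was called in no comparison. It was at 674.5, 470.2, 683.5, 603.7, 340.9 and 148.2 in tumours, at 308.2, 244.2 and 221 in GNPC, and at 623.9, 321.8, 484.8 and 401.2 in DBS. Tumours 1 to 5 lay above every GNPC sample and tumour 6 lay below them. The difference from GNPC was 0.73 ± 0.37 (95% interval -0.07 to 1.53, adjusted p = 0.119, limma), and without tumour 6 it was 1.02 (adjusted p = 0.00393) and called. The difference from DBS was -0.03 ± 0.34 (95% interval -0.76 to 0.7), with overlapping groups.

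Irs1 was the member that rose. It was at 11062.2, 9154.4, 11106.9, 10800.9, 10201.1 and 10146.1 in tumours, at 3562.3, 3948.4 and 3464.9 in GNPC, and at 5574.2, 7110, 5584.6 and 6517.6 in DBS. The 3 groups did not overlap, with GNPC lowest and the tumours highest. The tumours were 2.84-fold higher than GNPC (1.5 ± 0.1, adjusted p = 1.42e-07, limma) and 1.68-fold higher than DBS (0.75 ± 0.09, adjusted p = 2.4e-06), the second short of the 2-fold rule. GNPC was below DBS by a similar size (-0.75 ± 0.1, adjusted p = 5.28e-05). The level in tumours was also the most even of the members, as given below for all of them.

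Irs2, the second substrate, was at 294.2, 260.8, 142.3, 185.9, 205.7 and 283.5 in tumours, at 289, 217.3 and 212.3 in GNPC, and at 355.4, 225.7, 332.6 and 220.4 in DBS. The 3 groups overlapped. The difference was -0.09 ± 0.23 from GNPC (95% interval -0.58 to 0.41) and -0.3 ± 0.21 from DBS (95% interval -0.75 to 0.15), and neither was called.

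Whether groups overlap was also counted over members. In tumours against GNPC 6 of 10 members had groups that did not overlap, 5 lower and 1 higher, where 44.9% of all genes had (24% lower, 21% higher). In tumours against DBS 6 of 10 did (5 lower, 1 higher), where 56.1% of all genes did (28.9% lower, 27.2% higher). Between GNPC and DBS 6 of 10 did, all lower in GNPC, where 55.9% of all genes did (27.3% lower, 28.6% higher). The total shares in the last 2 comparisons lie near those of all genes.

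The tumours differed most in Igf2. The SD of log2 values over the 6 tumours was 1.37 for Igf2, higher than for 99.2% of genes, and the highest tumour value was 5471.8 against 331.6 in the lowest. Igfbp3 came next with an SD of 0.8, then Igfbp4 with 0.58 and Igfbp2 with 0.48. Irs1 had an SD of 0.11, higher than for 5.46% of genes, beside a median of 0.27 over all genes. As deviations from the group means over 13 arrays, Igf1r and Igf2r had r = 0.75, Igf1r and Igfbp4 r = 0.72, and Igf1 and Igfbp4 r = -0.63. These values share each array's scaling and are a description.

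Tumour 3 was looked at further because of its Igf2 value, so the following is a description with no test. Among 11 measured genes of a list of Igf2 mRNA binding and imprinted genes, 4 were highest in tumour 3 (Grb10, Cdkn1c, Mest and Dlk1), beside 15.6% of all genes. Dlk1 was so by a small margin (73.6 against at most 72.5), under the array median of 92. Grb10, an imprinted adaptor that restrains insulin and IGF receptors, was at 104.9, 599.3, 2185.7, 118, 103.3 and 185.1 in tumours 1 to 6. Cdkn1c, an imprinted inhibitor of cell division, was at 494, 704.2, 2832.9, 275.3, 263 and 943.4. Tumour 3 was thus the high sample for both, as for Igf2. For Plagl1, an imprinted zinc finger factor, it was at 1848.7 within the range of the others (984 to 2456.9). It also lay within the range of the others for Meg3, Peg3, Ndn, Nnat, Igf2bp1 and Igf2bp3. Within the axis Igfbp3 and Irs1 were also highest in tumour 3, by small margins (683.5 against at most 674.5, and 11106.9 against at most 11062.2), and Irs2 was lowest there. Several marker lists were also at the edge of the tumours' range in tumour 3. Its mean log2 level was the highest for pericytes (9.32, against 8.03 to 8.87) and endothelium (8.68, against 7.86 to 8.46). It was the lowest for microglia (9.12), differentiated neurons (8.97), oligodendrocytes (8.46), brainstem neurons (5.36) and granule neuron precursors (11.68), and for meninges and fibroblasts it lay within the range (7.24). Tumour 4, second in pericyte markers at 8.87, had the lowest Igf2. Their part in the Igf2 value was not tested.

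**Figure D4:**
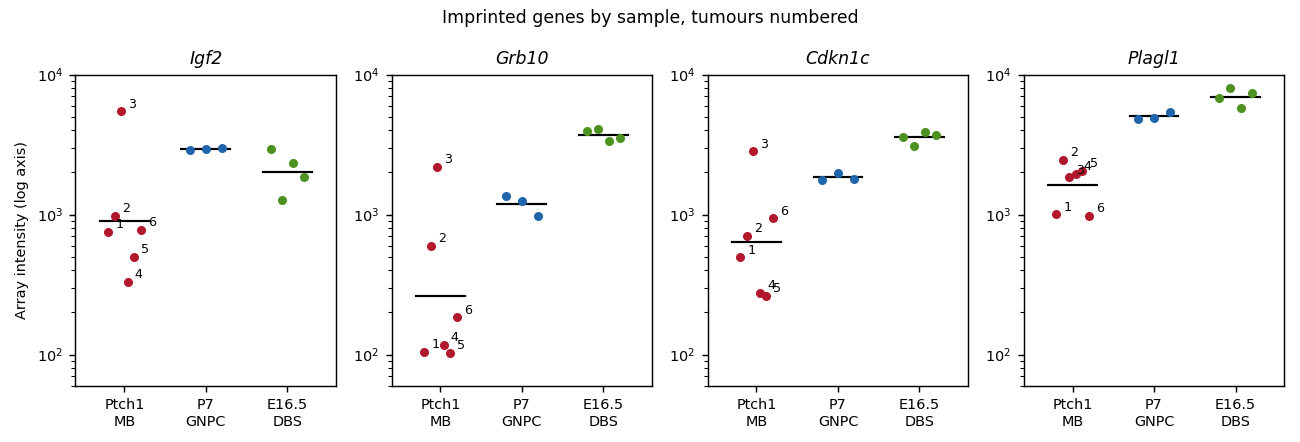
Array intensity (log axis) of Igf2 and 3 other imprinted genes in every sample, with tumours numbered and a line at each geometric mean. Tumour 3 is the highest tumour for Igf2, Grb10 and Cdkn1c, at 5471.8, 2185.7 and 2832.9, and not for Plagl1.

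By the rule of highest Pearson r over the 13 arrays, the genes most like Igf1 were Acaa1b (0.989), Scamp1 (0.984) and Coch (0.983). For Igf2r they were Nckap5 (0.987), Pcdh7 (0.985) and Ubr1 (0.984), for Igfbp5 Epha7 (0.975), Plec (0.974) and Golm2 (0.973), and for Irs1 Zfp566 (0.975), Fbxl20 (0.965) and Lhx2 (0.964). For Igfbp4 they were Adgrb2 (0.97), Flywch1 (0.959) and Kit (0.947), for Igfbp2 Washc1 (0.935), Got1 (0.921) and Aldh4a1 (0.919), and for Igf1r Foxk1 (0.947), Sec24a (0.94) and Slc8a3 (0.936). The likeness was lower for Igf2, with Ackr3 (0.922), Col4a5 (0.909) and Col5a2 (0.886), the last 2 encoding collagens, and for Irs2, with Manba (0.875), Bhlhe40 (0.873) and Pex26 (0.849), and Igfbp3, with Fbln2 (0.862), Shoc2 (0.846) and Rtkn (0.827). These values follow the group differences, which deviations from group means remove. For Igf2 the deviations include tumour 3, which had the highest tumour values of Igf2 (5471.8) and S100b (9029.9). The r without tumour 3 was not computed. As deviations from group means the leading genes were S100b (0.961), Socs2 and Dpysl4 (both 0.944) for Igf2 and Adgrb2 (0.941) for Igfbp4. For Igf1 they were Snrnp40 (0.934), Ipo8 (0.901) and Casd1 (0.897), for Igf2r Zfp207 (0.93), Zfp329 (0.92) and Invs (0.905), for Igfbp2 Nifk (0.882), Fxyd1 (0.876) and Rnh1 (0.875), for Igfbp5 Ncoa6 (0.923), Emilin1 (0.913) and Dcdc2b (0.883), and for Irs1 Cdk7 (0.888), Etv6 (0.875) and Ammecr1l (0.872).

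The rest of the pathway was read through 5 lists with 100 entries, of which 77 were tested. Against GNPC 5 were called higher and 13 lower (beside 6.59% and 14.2% of all genes), with a median log2 difference of -0.21, beside -0.03 over all genes. Against DBS 8 were higher and 24 lower (beside 15.5% and 20.9%), with a median of -0.38, beside 0. Between GNPC and DBS 9 were higher and 15 lower (beside 8.73% and 9.68%), with a median of -0.21, beside 0.04. Against GNPC the share called lies near the 20.8% of all genes. The lists below are to be read against these shares.

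Of 11 imprinted genes and Igf2 mRNA binding proteins tested, 0 were higher and 5 lower against GNPC, 0 higher and 10 lower against DBS, and 0 higher and 5 lower between GNPC and DBS, where 14.2%, 20.9% and 9.68% of all genes were lower. Their medians were -0.6, -1.8 and -1.13, beside -0.03, 0 and 0.04 over all genes; against GNPC the protease list had a like median of -0.51. Meg3, an imprinted non-coding RNA, fell against both, with log2 differences of -3.27 and -4.44. Ndn, which encodes a growth suppressor of neurons, did so too (-2.77 and -3.61). Both had every tumour below every normal sample. With probe sets that can bind several transcripts left out, the differences from DBS were -5.65 for Meg3 and -3.02 for Ndn. Grb10 (-2.07 and -3.7) and Cdkn1c (-1.5 and -2.43) were called against both, although tumour 3 exceeded GNPC in each (without it Grb10 was at -2.66 and -4.29), and their GNPC calls were lost in the fit of those 2 groups alone (adjusted p = 0.0595 and 0.0631, limma), without tumour 5 (0.0506 and 0.0526) and with any 1 GNPC sample left out (0.0517 to 0.0827 and 0.0689 to 0.0825). The Cdkn1c call was also lost without tumour 4 (adjusted p = 0.0527) and with median scaling (0.0589). Plagl1 was lower than in both (-1.62 and -2.08). Igf2bp3, which binds Igf2 mRNA, was lower than in DBS (-1.13) and not called against GNPC (-0.37).

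Among proteases and their inhibitors, which set how much ligand is freed from the binding proteins, 2 of 11 were higher and 2 lower against GNPC, and 2 higher and 5 lower against DBS. Of all genes, 6.59% were higher and 14.2% lower against GNPC, and 15.5% and 20.9% against DBS. Pappa and Pappa2, which encode the proteases that cleave Igfbp4 and Igfbp5, were at 6 to 42.8 and 7.2 to 39.9 in tumours against 151.4 to 257.1 and 175.8 to 319.5 in DBS (-2.49 and -2.68). Neither was called against GNPC, and being dim in tumours both depend on the pseudocount (-3.3 and -3.4 with 1, -1.64 and -1.84 with 64). Htra1, a secreted serine protease, was lower than in both normal tissues (-1.46 from GNPC and -1.22 from DBS). So was Plat, the tissue plasminogen activator (-1.25 and -1.3). Stc1, an inhibitor of PAPP-A, was lower than in DBS (-2.47, or -1.74 with a pseudocount of 64). Ctsd, a lysosomal protease, was higher than in both normal tissues (1.2 from GNPC and 1.69 from DBS). Timp1, a metalloprotease inhibitor, was too (1.02, near the 2-fold edge, and 2.1).

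Of 5 other ligands, receptors and binding proteins tested, Sorl1 was lower than in both normal tissues (-1.71 from GNPC and -1.41 from DBS). Igfbpl1, a protein related to the binding proteins, was at 1561.1 to 2626.4 in tumours and 139.5 to 227.1 in DBS (3.31). The insulin receptor gene Insr, which can pair with Igf1r in hybrid receptors, was not called in any comparison (0.04 and -0.38 in tumours).

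Among 18 adaptors and receptor regulators, 1 was higher and 2 lower against GNPC, and 2 higher and 4 lower against DBS, no larger a share than the 20.8% and 36.3% of all genes called. Irs4, a further receptor substrate, was at 3.7 to 22.6 in tumours and 621.4 to 1016.4 in DBS, a difference of -4.8 ± 0.4 (adjusted p = 6.3e-08, limma) that was -6.02 with a pseudocount of 1 and -3.57 with 64. It therefore differed from Irs1, whose tumour values lay above DBS. Grb14, an adaptor that inhibits insulin receptor signalling, was lower than in both (-1.67 and -2.73), as was Dok4 (-1.39 and -2.36), whose tumour values of 28.5 to 83.7 were dim and whose call against GNPC was lost with a pseudocount of 64 (-0.99). Socs3, a feedback inhibitor of cytokine and insulin signalling, was higher than in both (1.37 and 3.45), on a probe set that can bind several transcripts. With such probe sets left out it differed by 0.47 from GNPC, not called, and by 1.47 from DBS, and with the mean of its probe sets by 0.96, not called, and 2.52. It was also higher in GNPC than in DBS (2.08), a call lost with such probe sets left out (1).

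In the PI3K-Akt-mTOR cascade, 2 of 32 were higher and 3 lower against GNPC, and 3 higher and 4 lower against DBS, a smaller share than the 20.8% and 36.3% of all genes called. Eif4ebp1, the repressor of translation that mTOR inactivates, was at 1096.7, 1093.9, 2087.2, 1439.2, 2611 and 2290.8 in tumours, at 98.5, 122.6 and 102 in GNPC, and at 87.3, 81.2, 121.9 and 106.4 in DBS. The groups were far apart, with differences of 3.75 ± 0.26 and 3.86 ± 0.24 (adjusted p = 2.05e-07 and 3.04e-09, limma). This probe set can bind several transcripts; the differences were 3.07 and 3.65 without probe sets of that kind and 2.6 and 2.59 with the mean of probe sets, and all were called. Rps6, the ribosomal protein phosphorylated downstream of mTOR, was higher than in both normal tissues (1.32 from GNPC and 1.4 from DBS). Inpp4b, a phosphatase that limits PI3K signals, was lower than in both (-2.04 and -3.26). These differences were -1.4 and -2.46 with a pseudocount of 64, and that from DBS was -3.86 with a pseudocount of 1 and -2.25 with the mean of its probe sets. Between GNPC and DBS, Pik3r3 and Akt2 were higher in GNPC (1.38 and 1.44, with Akt2 at 2.23 without probe sets that can bind several transcripts) and Pik3r1 lower (-1.35), with the adaptors Gab1 higher (1.69) and Gab2 lower (-1.6). The Pik3r1 call was lost with the mean of its probe sets (-0.99). Igfbp6, a binding protein that prefers IGF2, was higher in GNPC than in DBS (1.6) and Igfbpl1 too (2.7), while Dlk1 was lower (-1.54), as were Irs4 (-4.03), Pappa (-2.24), Pappa2 (-2.03) and Stc1 (-1.95). Irs4 ranged here from -4.97 with a pseudocount of 1 to -3.12 with 64, and was at -4.74 without GNPC sample 1 and -3.39 without GNPC sample 3. Pappa was at -1.53 with a pseudocount of 64. Trib3, an inhibitor of Akt, and Igf2bp1 were called lower in GNPC (-1.61 and -1.56), but the Trib3 call was lost with any 1 of the 7 normal samples left out (adjusted p = 0.0652 to 0.14, limma), and the Igf2bp1 call without GNPC sample 1 or 3 or DBS sample 4 (adjusted p = 0.0993, 0.0683 and 0.0834).

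**Figure D5:**
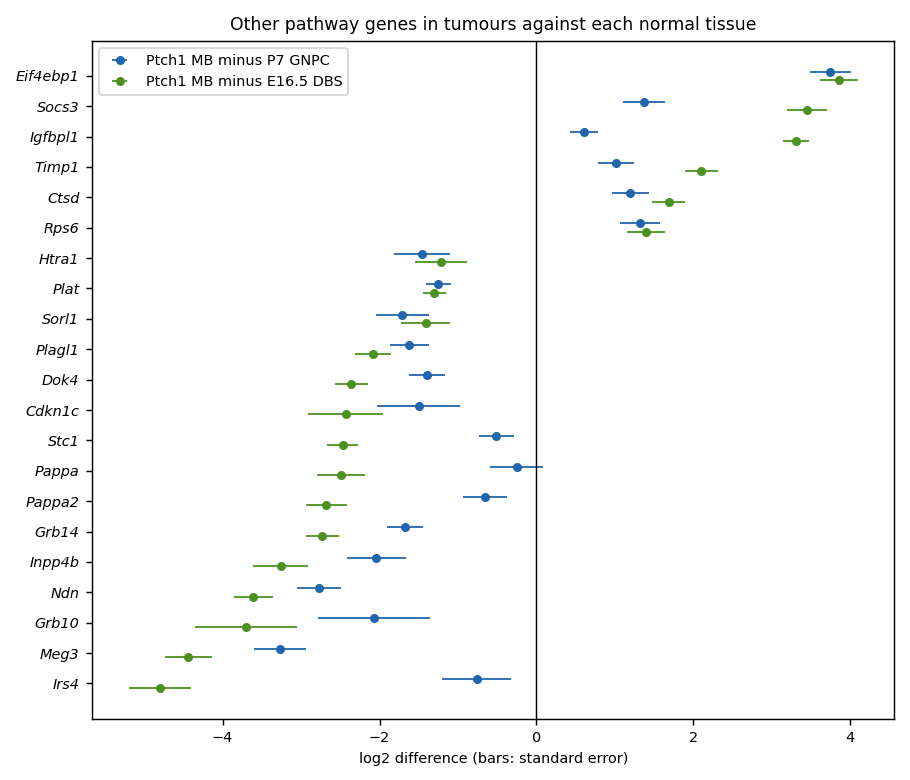
Log2 differences of the named pathway genes between tumours and each normal tissue, with bars for the standard error, ordered by the difference from DBS. Eif4ebp1 lies at 3.75 and 3.86 and Meg3 at -3.27 and -4.44.

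Marker lists of other cell types also differed between these groups, though not for every gene of a list. Meningeal and fibroblast markers, of which 12 of 12 were measured, had a mean log2 level of 6.93 to 7.51 in tumours, 8.69 to 9.1 in GNPC and 8.19 to 8.69 in DBS, and summed intensities of 1936 to 4952, 9747 to 11751 and 5757 to 9063. As a list these markers were therefore lowest in tumours, as were Igf1, Igf2r, Igfbp4 and Igfbp5. GNPC was highest in the list, whereas DBS was highest in Igf1, Igf2r and Igfbp5. Within the list Foxd1 went the other way (means of 838 in tumours, 152 in GNPC and 80.5 in DBS), and Lum was close in tumours and DBS (194 and 179). Differentiated neuron markers (12 of 12) summed to 17643 to 37245 in tumours, 63179 to 69637 in GNPC and 92867 to 104714 in DBS. Brainstem neuron markers (11 of 12, with Chat counted although it did not pass the filter) summed to 1318 to 3811, 4974 to 7038 and 35502 to 46030. In these sums, where bright probe sets count most, the groups had the order of Igf1, Igf2r and Igfbp5. By mean log2 level over the genes past the filter, the brainstem list kept that order (5.36 to 6.11, 6.87 to 7.11 and 11.32 to 11.48). Not every gene in it did: Hoxa5, Hoxb5 and Isl1 had higher means in tumours (8.43, 6.62 and 120) than in GNPC (7.3, 2.97 and 2.53). Hoxa5 and Hoxb5 were dim in both groups. Isl1 ran from 2.1 to 695.7 among tumours, past the highest DBS value of 423.8. The differentiated neuron list did not keep that order: GNPC (11.84 to 12.12) and DBS (11.84 to 12.03) overlapped, both above the tumours (8.97 to 10.48). Within it Rbfox3 and Gabra6 had higher means in tumours (8867 and 1414) than in DBS (7713 and 28.6). Astrocyte and Bergmann glia markers (12 of 12) summed to 22518 to 46358 in tumours, 68500 to 73104 in GNPC and 61236 to 67313 in DBS. Against that order, S100b, Sox9 and Slc1a2 had their highest means in tumours (3827, 614 and 3617). Their means were 2159, 339 and 2667 in GNPC and 747, 261 and 2079 in DBS. Gfap was also lower in DBS (544) than in tumours (1460). Endothelial markers (12 of 12, with Pecam1 and Tie1 counted although they did not pass the filter) summed to 3636 to 5970 in tumours, 6910 to 7699 in GNPC and 7482 to 9333 in DBS. Slco1a4 had its highest mean in tumours (747, against 256 in GNPC and 135 in DBS), and Slc2a1 was higher in tumours (1357) than in GNPC (950). Microglial and macrophage markers (12 of 12, with Itgam counted although it did not pass the filter) went the other way as a sum. They were at 8116 to 24821 in tumours, 5836 to 7008 in GNPC and 5391 to 5610 in DBS. The mean log2 level was also highest in tumours, but not every gene was. Csf1r had means of 2431, 2861 and 3022 and Cx3cr1 of 665, 779 and 762, in the same order of groups. Lyz2, at 4947, 243 and 135, made up much of the difference in sums. Oligodendrocyte markers (11 of 12) summed highest in GNPC, at 25454 to 45935, against 12817 to 24493 in tumours and 15040 to 20327 in DBS. Of these, Olig1, Olig2, Pdgfra and Cspg4 had higher means in tumours than in GNPC. Pericyte markers (10 of 10, with Anpep and Des counted although they did not pass the filter) summed to 2954 to 8636 in tumours, 7853 to 9193 in GNPC and 5646 to 7052 in DBS. The part of any of these cell types in the differences of the IGF axis genes was not tested.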

How the data were processed

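Total RNA was labelled by a 2-cycle amplification and hybridised to Affymetrix arrays, per the labels' protocols. The deposited tables hold linear intensities. The submitters' processing notes name MAS5 and give no version, and the files show that the authors scaled every array to a mean of 500 after trimming 2% at each end. Groups follow the source names, and numbers within a group follow accession order and pair nothing. Genes took the probe set with 1 symbol and the highest mean that exceeded its array's median on at least 3 of 13 arrays (12270 genes). One limma model (3.58.1, in R 4.3.3, with lmFit, and eBayes with an intensity trend) was fitted to log2(value + 18) of all 13 samples and checked on simulated data. The simulation gave each gene the same spread in all groups, so it did not check genes with unequal spreads. Igf2 was such a gene, with a linear SD of 1970 in tumours and 45.6 in GNPC. The number of arrays limits the precision.

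The members and lists were chosen with earlier results of these data known. Named were all 10 members and Ptch1, the 15 called list genes with the largest difference per comparison, and the 3 genes with the highest r to each member. Of the 100 list entries 10 had no probe set with 1 symbol. Windows were searched on both strands. Alternatives were 2 pseudocounts, 2 scalings, 2 filters, 2 choices of probe set, 2 models, and each sample left out. A Ctnnb1 tumour group was not analysed here.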

Additional observations from a re-analysis of the deposited data

Results flagged for a closer look

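In 80 groups (the members and named pathway genes, in the 6 tumours and in the 4 DBS samples), 6 values lay further from the rest of their group on the log2(value + 18) scale than Dixon's 95% limit allows, where chance flags about 1 in 20 groups. 0 of them belonged to the 10 members, but Igf2 in tumour 3 lay just under the limit (a gap of 0.619 of the range) and was past it on the linear scale (0.874), where no other member was. Values below are linear intensities. Inpp4b was at 424.5 in DBS sample 3, below the others at 542.9 to 553. Igf2bp1, which encodes an Igf2 mRNA binding protein, was at 166.6 in tumour 2 against at most 31.8 in the other tumours, and at 240.9 in DBS sample 4 against at most 123.2. Dlk1, an imprinted gene, was at 237.5 in DBS sample 1 against at most 177.3. The regulatory subunits Pik3r3 and Pik3r1 of PI3K stood apart in DBS sample 2, the sample with the highest 3′ to 5′ ratio, at 853.8 for Pik3r3 (others 1096.5 to 1121.6) and at 4398.8 for Pik3r1 (others 3172.6 to 3323.7).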

How the results depend on the processing

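With each sample left out in turn, 5 to 7 members were called against GNPC, 4 to 6 against DBS and 0 to 1 between GNPC and DBS, and 2286 to 2665, 4395 to 4554 and 2028 to 2329 of all genes. Scaling arrays to one median moved the median gene to 0.21 and 0.12 in tumours against GNPC and DBS and to -0.08 between GNPC and DBS; the share of calls that were higher went from 31.7% to 48.8% against GNPC and from 47.4% to 37.9% between GNPC and DBS. Under it 1 member (Igf1, -1.05) was called between GNPC and DBS, as without GNPC sample 3 (-1.02) or DBS sample 3 (-1.05), Igf2 against GNPC was lost (-1.44, adjusted p = 0.0569), and so was Igf2r (-0.79). Igf2r was also lost with a pseudocount of 64 (-0.83) and quantile normalization (-0.81), and Igf2 in the fit of 2 groups (adjusted p = 0.0579). The sign turned for Igfbp5 without probe sets that can bind several transcripts (0.34 against GNPC, 0.27 against DBS), where its dim probe set is all that remains. It also turned for values not called: Irs2 against GNPC under median scaling (0.14), quantile normalization (0.1), without tumour 3 (0.03) and without GNPC sample 1 (0.05), in a range of -0.16 to 0.05 over samples left out; Igfbp3 against DBS under median scaling (0.09), the mean of probe sets (0.03), and without tumour 5 (0.04), tumour 6 (0.26), DBS sample 1 (0.13) or DBS sample 3 (0.01), in a range of -0.18 to 0.26; and between GNPC and DBS, Igfbp4 under median scaling (-0.07) and without DBS sample 2 (-0.05), and Igfbp2 without GNPC sample 2 (-0.02), in a range of -0.02 to 0.52. The cause of these changes was not tested. Irs1 against GNPC ranged from 1.41 to 1.75 and Igfbp4 from -1.63 to -1.23, called under every alternative run. No paired analysis was possible because the sample numbers follow accession order and pair nothing.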
